A study of Homo sapiens with 6 samples.

Results

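miR-143 and miR-145 come from a pair of hairpins that lie close together on chromosome 5 within the long noncoding RNA gene CARMN. Their 4 mature strands, hsa-miR-143-3p, hsa-miR-143-5p, hsa-miR-145-5p and hsa-miR-145-3p (written without the prefix from here on), were taken by name from the 2588 miRNAs measured by small RNA sequencing in A549, an established cell line from a human lung adenocarcinoma. There were 3 libraries from parental cells (Ctrl) and 3 from cells whose *MIR21* locus was deleted (*MIR21*-KO), all harvested 48 h after seeding. The deletion was made with Cas9 and a pair of guide RNAs, and single-cell clones were selected after sorting. Whether the 3 *MIR21*-KO libraries came from the same clone is not stated, so the deletion and the choice of clone cannot be told apart. The methods describe the experiments of the study in general as biological triplicates, but neither they nor the labels say how the cultures behind these libraries were kept apart, and the p-values measure the spread between these libraries.

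A miRNA hairpin is cut from a longer primary transcript and trimmed to a duplex, and an Argonaute protein keeps mostly one strand (the guide) while the other (the passenger) is discarded. miR-143 and miR-145 are best known from smooth muscle cells and fibroblasts, where both are abundant and where they help to hold smooth muscle in its contractile state, and they are low in epithelial cells. A known target of miR-143-3p is MAPK7, and those of miR-145-5p include KLF4, SOX2 and POU5F1. Bulk tumor tissue holds smooth muscle and fibroblasts next to tumor cells, whereas a cell line in culture has no such neighbors.

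The mature sequences are shown because the seed, bases 2 to 8 from the 5′ end, sets most of the target pairing and shows which members could share targets (RefSeq, GRCh38.p14, seed in capitals):
miR-143-3p: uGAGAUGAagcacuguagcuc
miR-143-5p: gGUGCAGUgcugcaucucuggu
miR-145-5p: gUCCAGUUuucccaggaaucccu
miR-145-3p: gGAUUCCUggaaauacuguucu
No seed was shared within the cluster. miR-143-3p was the only member with seed mates among the 2370 mature human sequences searched, and both had 0 reads in all 6 libraries:
miR-4770: uGAGAUGAcacuguagcu
miR-6088: aGAGAUGAagcgggggggcg
The mature sequence nearest to miR-143-3p was miR-4770, at 3 edits (bases changed, added or removed). The nearest to miR-143-5p was 7 edits away, and those to miR-145-5p and miR-145-3p were 6 edits away each. No other hairpin held any of the 4 mature sequences whole, so reads of the members were not shared with a second full-length copy.

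MIR143 lies at chr5:149428918-149429023 on the plus strand (GRCh38, GENCODE 29), in exon 4 of the CARMN transcript CARMN-209, and MIR145 at chr5:149430646-149430733, in an intron of the same transcript. The hairpins are 1622 bases apart, and CARMN, which spans 149406689 to 149432835 with 12 annotated transcripts, contains both. The hairpins are given with the mature strands in capitals, the 5p strand first, since the strand that was read differed between them:
MIR143: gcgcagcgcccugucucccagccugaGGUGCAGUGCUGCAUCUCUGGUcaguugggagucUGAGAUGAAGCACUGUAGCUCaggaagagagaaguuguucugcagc
MIR145: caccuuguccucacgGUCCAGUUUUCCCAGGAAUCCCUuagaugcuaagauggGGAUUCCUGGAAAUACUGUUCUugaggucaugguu
In MIR143 nearly all reads came from the 3p strand, and in MIR145 most came from the 5p strand.

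The libraries held 6180032 to 9768152 miRNA reads in Ctrl and 5577287 to 8671618 in *MIR21*-KO. Without miR-21, which took most reads of the Ctrl libraries, 1945114 to 2966597 reads were left in Ctrl and 5575869 to 8669527 in *MIR21*-KO. The deleted gene matched the labels: miR-21-5p had 4232696 to 6782871 reads in Ctrl and 1127 to 2087 in *MIR21*-KO, a log2 fold change of -13.02. The libraries also fell into 2 sets that crossed the groups. On the first principal component of 601 miRNAs, computed without the 4 members and miR-21 and holding 72.1% of the variance, Ctrl replicates 1 and 2 and *MIR21*-KO replicate 3 lay on one side (the first set), and Ctrl replicate 3 and *MIR21*-KO replicates 1 and 2 on the other (the second set). No label names such sets, and they were read from these values, so a fit that uses them is not independent of the data. The values below are reads divided by 1 library size per library, which the authors set by TMM (a trimmed mean of the ratios between libraries) and expressed as counts per 1000000 (CPM), here called TMM-scaled CPM.

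The cluster was represented almost entirely by miR-143-3p. The strand hsa-miR-143-3p ranked 87 of 2588 by its mean of 601 over the 6 libraries, and it made up 95.3% to 99.5% of the reads of the cluster in each library. miR-145-5p, the guide strand of the neighboring hairpin, had a mean of 7.54 and ranked 362. The passenger strands miR-143-5p and miR-145-3p had means of 1.29 and 1.16 and ranked 568 and 579. All 4 members passed the low-value filter, which asked for 1 or more in 3 or more libraries, miR-145-3p in 3 of them, miR-143-5p in 4 and the guide strands in 6.

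miR-143-3p had 2273, 2397 and 1678 reads in Ctrl replicates 1 to 3 and 6612, 5745 and 9433 reads in *MIR21*-KO replicates 1 to 3. On the TMM scale these were 607, 648 and 237 in Ctrl, against 476, 414 and 1226 in *MIR21*-KO. The highest library was *MIR21*-KO replicate 3 and the lowest was Ctrl replicate 3, and the other *MIR21*-KO libraries lay between the Ctrl libraries. The group means were 497 ± 226 in Ctrl and 706 ± 452 in *MIR21*-KO (SD, n = 3). The rank of miR-143-3p within a library went from 53 in *MIR21*-KO replicate 3 to 124 in Ctrl replicate 3.

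miR-145-5p had 10, 17 and 66 reads in Ctrl replicates 1 to 3 and 180, 167 and 28 reads in *MIR21*-KO replicates 1 to 3. Its values were 2.67, 4.60 and 9.31 in Ctrl, against 13.0, 12.0 and 3.64 in *MIR21*-KO. *MIR21*-KO replicate 3, the library with the most miR-143-3p, was low in miR-145-5p, and Ctrl replicate 3, the library with the least, was the highest Ctrl library in miR-145-5p. The groups overlapped, with means of 5.53 ± 3.42 in Ctrl and 9.55 ± 5.14 in *MIR21*-KO (SD, n = 3).

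The passenger strands rested on few reads. miR-143-5p had 6, 0 and 4 reads in Ctrl and 28, 33 and 9 in *MIR21*-KO, which on the TMM scale were 1.60, 0 and 0.564 against 2.02, 2.38 and 1.17. In Ctrl replicate 2, where it had no read, a count of 3 would have been a value of 0.811. Ctrl replicate 1 lay above *MIR21*-KO replicate 3, so the groups overlapped. miR-145-3p had 2, 7 and 13 reads in Ctrl and 13, 14 and 6 in *MIR21*-KO, which on the TMM scale were 0.534, 1.89 and 1.83 against 0.936, 1.01 and 0.780. Its *MIR21*-KO libraries lay within the range of the Ctrl libraries.

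Whether the cluster changed with the loss of miR-21 was tested with limma over the 607 miRNAs that passed the filter, on log2(value + 1), a scale that understates changes of scarce miRNAs. In none of the 4 members did the groups separate, whereas 9.56% of the miRNAs tested had all *MIR21*-KO libraries above all Ctrl libraries and 6.59% had them all below. None of the 4 members was called at a Benjamini-Hochberg adjusted p under 0.05. Over all miRNAs tested 0.824% were called, 5 miRNAs that were all lower (0% higher, 0.824% lower). At an unadjusted p under 0.05 none of the members passed in limma, edgeR or DESeq2, while limma put 41 miRNAs higher and 27 lower.

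miR-143-3p differed between the groups by 0.46 ± 0.62 on the log2 scale (SE, 95% interval -0.99 to 1.90, limma adjusted p = 0.789). The direction rested on single libraries, since leaving out Ctrl replicate 3 gave -0.0089 and leaving out *MIR21*-KO replicate 3 gave -0.029. miR-143-5p differed by 0.81 ± 0.42 (interval -0.17 to 1.80, limma adjusted p = 0.538), and miR-145-5p by 0.67 ± 0.60 (interval -0.73 to 2.06, limma adjusted p = 0.719). miR-145-3p differed by -0.29 ± 0.35 (interval -1.11 to 0.54, limma adjusted p = 0.784). The sizes for the passenger strands depended on the pseudocount and the tool: miR-143-5p differed by 1.96 with a pseudocount of 0.1, by 0.15 with 10 and by 1.38 in edgeR on the reads, and miR-145-3p by -0.42, -0.064 and -0.65, and by -0.90 in DESeq2. The median over all 607 miRNAs lay at 0.24 in this fit. The intervals of miR-143-3p, miR-143-5p and miR-145-5p all reach beyond a rise of 1 on the log2 scale, so this fit does not exclude changes of that size. In bulk samples a change in the number of cells that make a miRNA and a change in its amount per cell cannot be told apart.

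The scaling moved these values. miR-21 took so many reads in Ctrl that scaling to the total of all miRNA reads put the median over the 607 miRNAs at 1.34. On that scale miR-143-3p (1.84, limma adjusted p = 0.0365) and miR-143-5p (1.51, limma adjusted p = 0.0335) were among 196 miRNAs called higher, and miR-145-3p turned from a negative to a positive value (0.42). Relative to that median, miR-143-3p lay at 0.50, miR-145-5p at 0.48, miR-143-5p at 0.17 and miR-145-3p at -0.92. Scaled to the total without miR-21, where the median of all miRNAs was 0.019, miR-143-3p differed by 0.20 and none of the members was called.

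Between the sets of libraries, the guide strands of the 2 hairpins went in opposite directions. miR-143-3p was higher in the first set, with 827 ± 346 against 376 ± 124 (SD, n = 3 each), 2.20-fold, and the sets did not overlap. Of the 607 miRNAs tested, 22.1% were higher in every library of the first set in this way. miR-145-5p was higher in the second set, with 11.4 ± 1.90 against 3.64 ± 0.962 (SD, n = 3 each), 3.15-fold, again with no overlap, as was the case for 35.1% of all miRNAs tested. The passenger strands overlapped between the sets. miR-143-5p had 0.924 ± 0.829 in the first set and 1.65 ± 0.961 in the second, and miR-145-3p had 1.07 ± 0.724 and 1.26 ± 0.499 (SD, n = 3 each).

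Opposite directions were not particular to this cluster. Mature strands listed for several hairpins were left out first, and each hairpin was represented by the more abundant strand that was kept. Some hairpins were thus represented by a scarce strand, such as miR-29b-2-5p (mean of 1.43, against 344 for miR-29b-3p). Among 269 pairs of hairpins on the same strand within 10000 bases of each other, 23.4% were separated by the sets in opposite directions and 31.2% in the same direction. These pairs overlap, since a long cluster gives many of them. Among 130 hairpins with both strands tested and kept, 18.5% had strands that the sets separated in opposite directions. One example outside the cluster was the pair miR-221-3p, higher in the second set, and miR-222-3p, higher in the first, whose hairpins lie 748 bases apart. These pairs were counted after the values of the members were seen.

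The number of miR-145-5p reads per 1000 miR-143-3p reads does not depend on the scaling, since both are counted in the same library. It was 4.40 (95% Wilson interval 2.39 to 8.11) in Ctrl replicate 1, 7.09 (4.42 to 11.4) in Ctrl replicate 2 and 39.3 (30.8 to 50.3) in Ctrl replicate 3. In *MIR21*-KO it was 27.2 (23.5 to 31.6) in replicate 1, 29.1 (24.9 to 33.9) in replicate 2 and 2.97 (2.05 to 4.29) in replicate 3. The first set thus ran from 2.97 to 7.09 and the second from 27.2 to 39.3, and no interval of one set reached an interval of the other. The group means were 16.9 ± 19.4 in Ctrl and 19.8 ± 14.6 in *MIR21*-KO (SD, n = 3) and differed by less than the spread between libraries. The Ctrl mean rested on replicate 3 and was 5.75 without it. Within each set every *MIR21*-KO library lay below every Ctrl library, although the intervals of *MIR21*-KO replicate 3 and Ctrl replicate 1 overlapped, as did those of *MIR21*-KO replicates 1 and 2 with that of Ctrl replicate 3.

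**Figure D1:**
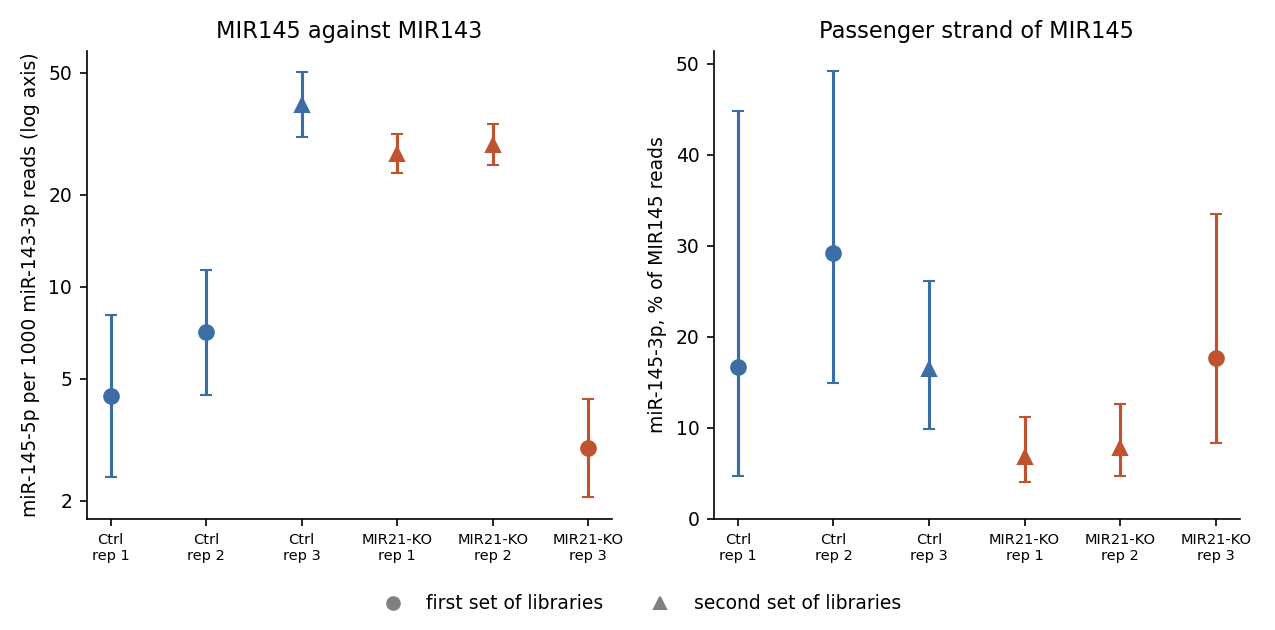
Left, miR-145-5p reads per 1000 miR-143-3p reads on a log axis; right, miR-145-3p as a percent of the reads of MIR145; each by library with 95% Wilson intervals for counting error, Ctrl in blue and *MIR21*-KO in orange, circles for the first set and triangles for the second. On the left the circles lie at or below 7.09 and the triangles at or above 27.2; on the right the intervals are wide and only *MIR21*-KO replicates 1 and 2 lie under 10%.

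The share of the passenger strand was counted in each hairpin. In MIR143 the 5p strand made up 0.263%, 0% and 0.238% of the reads in Ctrl replicates 1 to 3 and 0.422%, 0.571% and 0.0953% in *MIR21*-KO replicates 1 to 3. For the 0 of 2397 reads in Ctrl replicate 2, a count of 3 would have been a share of 0.125%, and the 95% Wilson interval reaches 0.160%. In MIR145 the 3p strand took a larger part, 16.7%, 29.2% and 16.5% in Ctrl, against 6.74%, 7.73% and 17.6% in *MIR21*-KO. Only 12 to 79 reads stood behind the MIR145 shares in Ctrl and 34 to 193 in *MIR21*-KO, and the 95% Wilson interval of Ctrl replicate 1 went from 4.70% to 44.8%. The means of the MIR145 share were 20.8% ± 7.28 in Ctrl and 10.7% ± 6.03 in *MIR21*-KO (SD, n = 3), and the groups overlapped. Between the sets of libraries they were 21.2% ± 6.95 in the first and 10.3% ± 5.35 in the second (SD, n = 3). The lowest library of the first set (16.7%) lay just above the highest of the second (16.5%).

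All 4 members together made up 0.0967%, 0.124% and 0.0594% of the miRNA reads other than miR-21 in Ctrl and 0.0788%, 0.0823% and 0.170% in *MIR21*-KO. The means were 0.0935% ± 0.0327 and 0.110% ± 0.0516 (SD, n = 3), a difference smaller than the spread. The sets of libraries did not overlap, with 0.130% ± 0.0370 in the first and 0.0735% ± 0.0124 in the second (SD, n = 3). MIR145 contributed 0.359% to 0.991% of the reads of the cluster in the first set and 2.82% to 4.49% in the second.

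When the sets were added as a term to the limma fit, miR-143-3p was the member called between the groups. It was higher in *MIR21*-KO by 0.94 ± 0.23 (SE, limma adjusted p = 0.0134), and edgeR on the reads gave 0.94 (adjusted p = 0.0176). Of the 607 miRNAs, 11.7% were called higher and 6.43% lower in that limma fit, where the median of all lay at 0.12, and 8.4% higher and 5.44% lower in edgeR. Within the first set *MIR21*-KO replicate 3 lay above both Ctrl libraries, by 0.97, and within the second set both *MIR21*-KO libraries lay above Ctrl replicate 3, by 0.90. Of all miRNAs tested, 30% were higher in *MIR21*-KO without overlap within both sets.

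The call of miR-143-3p with the set term depended on the scale and on single libraries. It was not made when the libraries were scaled to the total without miR-21 (0.55, limma adjusted p = 0.120), a scale on which the split of all calls turned from 71 higher and 39 lower to 19 higher and 65 lower and the median of all miRNAs was -0.21. Relative to the median of all miRNAs, miR-143-3p was higher by 0.76 on that scale and by 0.82 on the TMM scale. With median-of-ratios factors (0.80, limma adjusted p = 0.0302) and with median centring (0.79, limma adjusted p = 0.0313) the call was made. It was lost when Ctrl replicate 3 (limma adjusted p = 0.104), *MIR21*-KO replicate 1 (limma adjusted p = 0.0610) or *MIR21*-KO replicate 3 (limma adjusted p = 0.104) was left out, while the log2 fold change stayed between 0.90 and 0.98 over the 6 fits that each left out 1 library.

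The other members were not called with the set term. miR-143-5p differed by 0.73 ± 0.36 (SE, limma adjusted p = 0.174) and was called without Ctrl replicate 1 (1.07, limma adjusted p = 0.0123), a fit in which the Ctrl library of the first set was the one with no read. Within the sets its difference was 0.43 in the first and 1.03 in the second. miR-145-5p differed by 0.21 ± 0.31 (SE, limma adjusted p = 0.685), by 0.034 within the first set and by 0.39 within the second, and its sign turned on the total without miR-21 (-0.12). miR-145-3p differed by -0.38 ± 0.31 (SE, limma adjusted p = 0.436), by -0.24 within the first set and by -0.52 within the second. Whether miR-143-3p and miR-145-5p differed from each other in their response to the deletion was not tested.

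**Figure D2:**
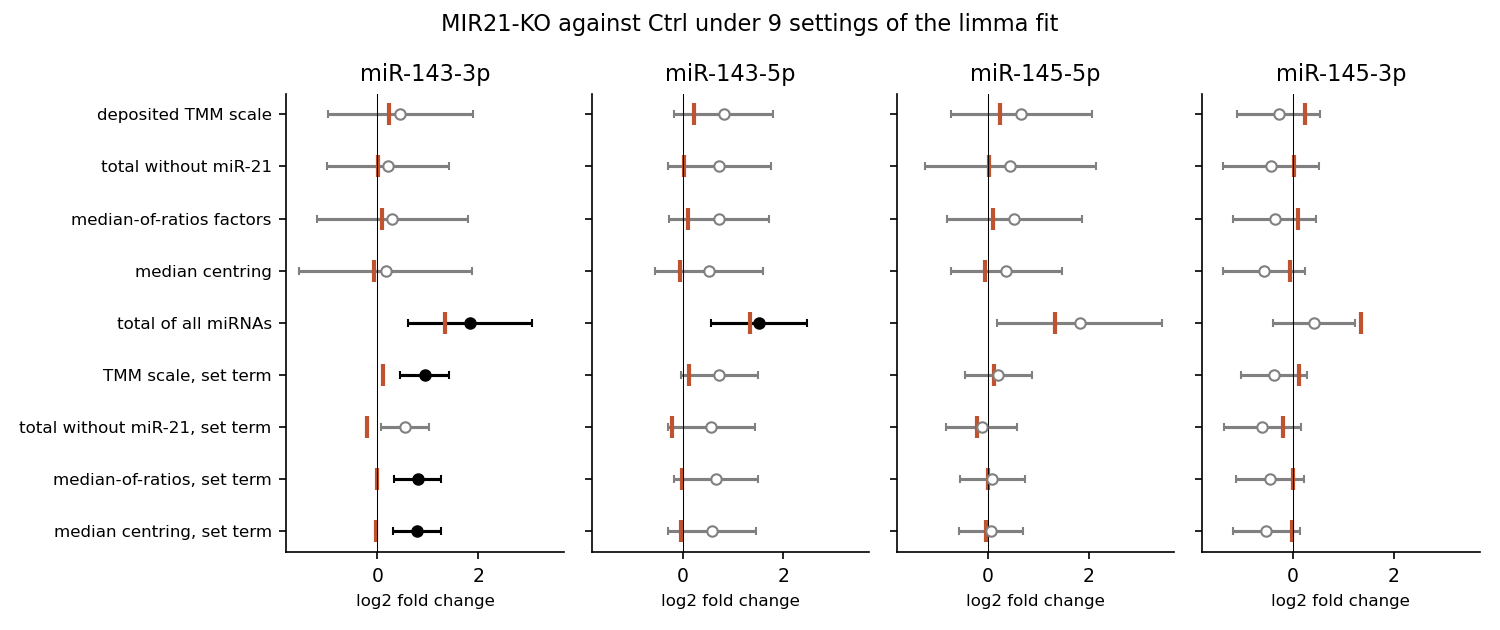
Log2 fold change of *MIR21*-KO against Ctrl with its 95% interval for each cluster miRNA, by scaling and with or without a term for the sets of libraries (limma); filled black points have an adjusted p under 0.05 and orange bars mark the median of all miRNAs tested. miR-143-3p lies at 0.46 on the TMM scale and at 0.94 with the set term, and miR-145-5p lies near the median of all miRNAs wherever the set term is used.

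**Figure D3:**
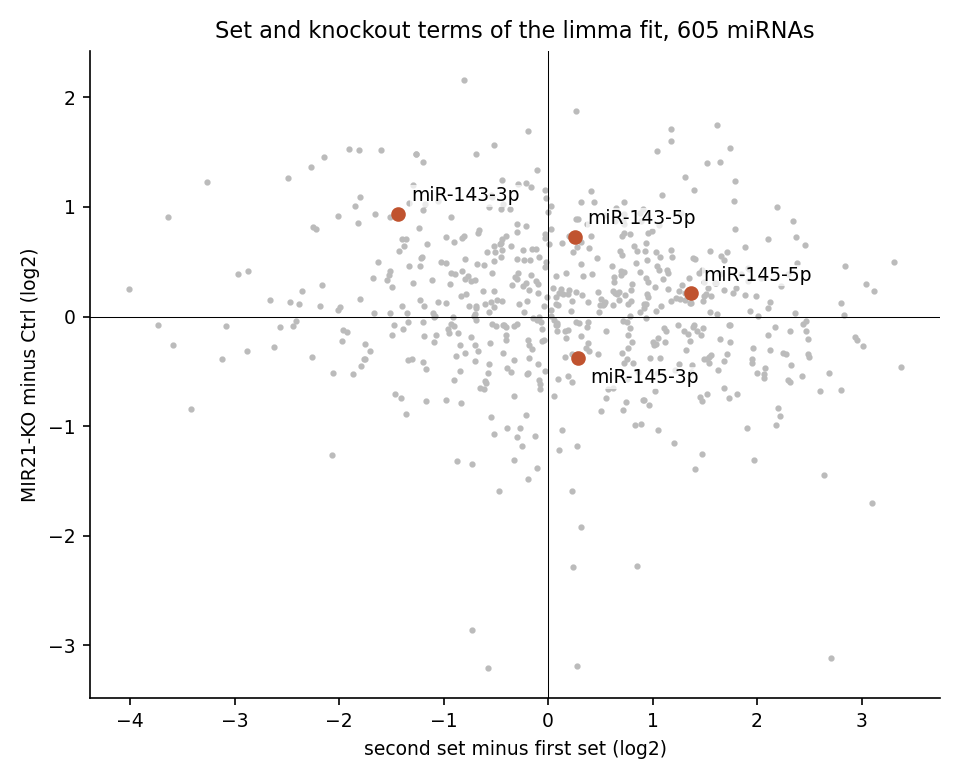
Terms of the limma fit for 605 miRNAs (all those tested except miR-21): the difference between the second and the first set (x axis, log2) against the difference between *MIR21*-KO and Ctrl (y axis, log2), with the cluster miRNAs in orange. miR-143-3p lies to the left at -1.43 and miR-145-5p to the right at 1.36, inside the spread of the other miRNAs on both axes.

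miRNAs of smooth muscle, muscle and fibroblasts were read beside the cluster, since those cells are its best known source. Of 10 such miRNAs, 3 passed the filter and 3 had at most 3 reads in every library. The sum of their values was 9.17 to 38.7 in Ctrl and 10.6 to 74.0 in *MIR21*-KO, against a mean of 601 for miR-143-3p alone. Most of the sum was miR-1-3p, a miRNA of striated muscle, with a mean of 23.9. Its values were 11.5, 25.7 and 5.64 in Ctrl, against 21.9, 7.64 and 71.1 in *MIR21*-KO, so it was highest in the library where miR-143-3p was highest and lowest where miR-143-3p was lowest. miR-199a-3p and miR-199a-5p, which are abundant in fibroblasts, had means of 1.85 and 1.43, and miR-214-3p, made from the same primary transcript as one of the miR-199a hairpins, had a mean of 0.0240. The miR-199a strands did not share the pattern of miR-1-3p, on at most 18 reads in a library. Both were highest in Ctrl replicate 2 (4.05 and 3.24), and miR-199a-3p was lowest in *MIR21*-KO replicate 3 (1.04). Their log2 fold changes were -0.59 and -0.77, against 0.90 for miR-1-3p. None of the 3 that passed was called, and with the set term miR-1-3p was (1.53, limma adjusted p = 0.0224). The part of such cells in the values of the cluster was not tested.

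Of 8 miRNAs known from epithelia, 7 passed the filter, and the values of the list summed to 1406 to 2207 in Ctrl and 900 to 1300 in *MIR21*-KO. The most abundant was miR-200b-3p, which keeps the epithelial state by repressing ZEB1 and ZEB2, with a mean of 1106, followed by miR-200a-3p (208), miR-429 (74.5) and miR-200c-3p (57.9). Others of the list were scarce, with means of 6.03 for miR-203a-3p and 1.13 for miR-141-3p, and miR-205-5p, which is known from squamous and basal epithelia, had at most 4 reads in a library and 0 in 4 libraries. None was called between the groups, and the median log2 fold change of the 7 was -0.22. With the set term 1 of the 7 was called higher (miR-200c-3p) and 2 lower (miR-200b-3p and miR-200a-3p). Over all miRNAs tested that limma fit called 11.7% higher and 6.43% lower. The endothelial pair miR-126-3p and miR-126-5p had means of 1984 and 10.9, so that miR-126-3p exceeded each epithelial miRNA of the list, and neither was called. Of 8 blood miRNAs 2 passed, miR-486-5p with a mean of 119 and miR-451a with 12.6, and the list summed to 137 to 220 in Ctrl and 78.8 to 93.1 in *MIR21*-KO. Most of the epithelial sum was miR-200b-3p and most of the blood sum was miR-486-5p, so the sums mainly show these miRNAs. Each had all *MIR21*-KO libraries below all Ctrl libraries, as did 6.59% of all miRNAs tested. Neither blood miRNA was called without the set term. With it miR-486-5p (-0.90, limma adjusted p = 0.0270) and miR-126-5p (-1.15, limma adjusted p = 0.0224) were lower.

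The nearest annotated miRNA genes on chromosome 5 that were followed here are MIR378A, which starts 303907 bases beyond the start of MIR143, and MIR584, 366605 bases before it on the minus strand. Both lie outside CARMN. Of their 4 strands, 3 passed the filter, and none was called between the groups. miR-378a-3p had a mean of 1424 and a log2 fold change of -0.60, and miR-378a-5p had 9.08 and -0.92. miR-584-5p had 14.2 and 0.63. With the set term miR-584-5p was higher (1.02, limma adjusted p = 0.0259) and miR-378a-5p lower (-1.39, limma adjusted p = 0.00996).

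The miRNAs whose pattern over the 6 libraries was most like that of each member were named by Pearson's r of log2(value + 1), among those with a mean of at least 10. Since the libraries fall into 2 sets, a miRNA that differs between the sets in the same direction gives a high r. For miR-143-3p they were miR-10b-5p (r = 0.994), miR-10a-5p (r = 0.992) and miR-576-3p (r = 0.990). miR-10b-5p had values of 5905, 5213 and 1086 in Ctrl, against 3250, 2733 and 13477 in *MIR21*-KO, the same order of extremes as miR-143-3p at a higher level. For miR-145-5p they were miR-365b-3p (r = 0.992), miR-224-3p (r = 0.989) and miR-127-5p (r = 0.989). miR-365b-3p had values of 37.9, 55.7 and 127 in Ctrl, against 141, 147 and 49.4 in *MIR21*-KO. The passenger strands had less close counterparts, miR-382-5p for miR-143-5p (r = 0.870) and miR-151a-5p for miR-145-3p (r = 0.746), each over 6 libraries.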

How the data were processed

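Per the labels, small RNA libraries were prepared and sequenced by Novogene. The paper's methods are wider for the study's small RNA libraries: preparation with a NEXTflex kit or by Novogene, and sequencing in Dresden or at Novogene. They do not assign single libraries to a route, and a link to the sets of libraries was not tested. The submitters' processing notes name cutadapt 1.14, Bowtie2 2.3.2, SAMtools 1.5, featureCounts 1.5.3, edgeR 3.18.1 and hg38; the miRNA annotation and the treatment of multi-mapping reads are not given in the sources used here. The authors deposited a signal per miRNA and library, which is the read count divided by 1 TMM-scaled library size (TMM-scaled CPM), together with columns of their own test (log2 fold change, p-value, FDR), which were not used.

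Reads were recovered as whole multiples of the smallest value of a library: 100% of values above 0 came out whole within 1e-06. The 2813 rows were summed by name to 2588 miRNAs. The factors were 0.545 to 0.725 in Ctrl and 1.38 to 1.91 in *MIR21*-KO. TMM is meant to take out a shift shared by most miRNAs, although on its scale the median log2 fold change over the 607 tested was 0.24. The main test was limma 3.58.1 (R 4.3.3, eBayes with trend) on log2(value + 1), two-sided, over 607 miRNAs at 1 or more in 3 or more of the 6 libraries, with Benjamini-Hochberg adjustment and a threshold of 0.05. edgeR 4.0.16 (quasi-likelihood) and DESeq2 1.42.0 on the recovered reads, other pseudocounts, filters and scalings, a replicate block, a term for the sets of libraries and leaving out each library were alternatives. edgeR used the deposited scaled library sizes. The edgeR fit with the set term, the set term on other scales and with a library left out, and the counts of hairpin pairs were added after the data were seen. The fits were tested on simulated counts. Wilson intervals (95%) and limits from 3 counts cover counting error only, since reads carried no molecular identifiers. No pair of replicates differed by as little as sampling noise.

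The named miRNAs are the 4 members, miR-21, seed mates, neighbors on chromosome 5, fixed lists of cell type miRNAs (up to 4 named by mean) and the 3 closest patterns per member. miR-221-3p, miR-222-3p, miR-214-3p, miR-203a-3p, miR-141-3p and miR-205-5p were chosen once their values had been seen. The members and lists were chosen with earlier results of these data known. Tables and figures were made in Python 3.11.15 with pandas 2.3.3, statsmodels 0.14.6 and matplotlib 3.10.9.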

Additional observations from a re-analysis of the deposited data

How the results depend on the processing

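The differences between the groups kept their direction and stayed uncalled with pseudocounts of 0.1 and 10, without a filter, with 3 of the 4 other scalings, with edgeR, with DESeq2 and with the replicate block, but not their size: miR-143-5p ran from 0.15 (pseudocount of 10) to 1.96 (0.1), miR-145-5p from 0.32 to 0.77, miR-145-3p from -0.90 (DESeq2) to -0.064 (pseudocount of 10) and miR-143-3p from 0.16 to 0.51. miR-143-3p, the only member with a mean of at least 10, also kept its direction with that filter. On the total of all miRNA reads miR-143-3p (1.84) and miR-143-5p (1.51) were called and miR-145-3p turned to 0.42. miR-143-3p was called with the set term in limma (0.94) and edgeR (0.94), with centring on the median (0.79) and with median-of-ratios factors (0.80), and miR-145-5p turned to -0.12 with the set term on the total without miR-21. Leaving out 1 library gave -0.029 to 0.75 for miR-143-3p, 0.48 to 1.17 for miR-143-5p, 0.32 to 1.18 for miR-145-5p and -0.59 to -0.13 for miR-145-3p, and with the set term 0.90 to 0.98, 0.43 to 1.07, 0.034 to 0.39 and -0.60 to -0.21. Over all miRNAs, 0 higher and 5 lower calls became 3 lower with a pseudocount of 10, 9 lower with median centring, 196 higher on the total of all reads and 4 higher and 19 lower with DESeq2. With the set term they were 71 higher and 39 lower in limma, 51 and 33 in edgeR, 37 and 46 when centred on the median, 39 and 43 with size factors from ratio medians and 19 and 65 on the total without miR-21. Leaving out 1 library gave 0 higher and 2 to 5 lower calls, and with the set term 4 to 122 higher and 11 to 71 lower. The cause of these changes was not tested. The replicate numbers do not pair the libraries, since the deviations of same-numbered libraries from their group means correlated at -0.79, -0.60 and -0.88; the replicate block gave 2 lower calls and 0.46 for miR-143-3p (adjusted p = 0.950, limma with Benjamini-Hochberg adjustment). The mean of miR-145-5p reads per 1000 miR-143-3p reads was 5.75 to 23.2 in Ctrl and 15.1 to 28.1 in *MIR21*-KO when 1 library was left out, the lowest Ctrl value without replicate 3, and 14.7 and 17.2 from reads summed over a group. With 3 libraries, leaving out 1 cannot move a mean by 1 SD, so this says nothing about the stability of the shares and of this ratio. Few reads limit the passenger strands, at most 33 in a library.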
